A study of Homo sapiens with 8 samples.

Results

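Variation between sister clones was described in 8 stable HEK293T cell lines, 2 independently isolated clones for each of 4 vectors, which are all 8 samples of the series. The pairs were taken from the sample titles and were #1 and #2 of empty vector, #2 and #5 of TET1-CDwt, #3 and #10 of MBD-TET1-CDwt, and #9 and #10 of MBD-TET1-CDmut. The parent HEK293T line comes from human embryonic kidney and carries the SV40 large T antigen. Empty vector is the pcDNA6 plasmid without an insert. TET1-CDwt adds the FLAG-tagged catalytic domain of TET1, MBD-TET1-CDwt adds that domain joined to the methyl-CpG-binding domain (MBD) of MBD2, and MBD-TET1-CDmut adds the same fusion with a point mutation that inactivates the catalytic domain. All lines, empty vector included, were selected with blasticidin S after transfection, and each was expanded from 1 picked colony. RNA of each clone was hybridized to 1 single-color Agilent array. A clone therefore has no replicate, and a difference between sister clones has no test of its own.

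TET enzymes oxidize 5-methylcytosine, a step toward its removal, and an MBD binds methylated CpG sites. A stable clone descends from 1 transfected cell, so it carries the plasmid at its own integration site and copy number together with whatever expression state and chromosome set that founder cell had. HEK293T cells are hypotriploid with an unstable karyotype, and cells of 1 culture can differ in the copies of whole chromosomes and of chromosome segments. Expression differences between sister clones of 1 vector form the spread against which any effect of the vector is read.

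Levels are log2 intensities relative to the 75th percentile of the array's probes, so that 0 is the level of a fairly bright probe and 1 unit is a 2-fold change. A gene was represented by its brightest probe, and a difference is the clone named second minus the clone named first. Of 19483 genes with a probe, 14811 were measured in empty vector, 14800 in the TET1-CDwt pair, 14545 in the MBD-TET1-CDwt pair, and 14342 in the MBD-TET1-CDmut pair, meaning that the probe was well above background on at least 1 array of the pair. A dim signal was replaced by the array's lowest signal well above background, unless it was itself higher, so a fold against it is a bound, printed with the words at least. Where the levels of all 8 arrays are listed, they are as measured, and those not well above background are marked dim. Between 63.2% and 68.2% of probes were well above background on an array. Repeated spots of 1 probe gave a standard error of about 0.03 for a difference between arrays, whereas the median size of the difference on these probes was 0.13 to 0.39. This error covers spots within an array and not RNA preparation, labeling, or hybridization. Of 10 spike-in RNAs, the 8 well above background moved together within a pair, by a median of -0.53 in empty vector, 0.03 in the TET1-CDwt pair, 0.53 in the MBD-TET1-CDwt pair, and 0.08 in the MBD-TET1-CDmut pair. If arrays are scaled on the spike-ins, the median of all genes therefore moves by 0.54 in empty vector and by -0.52 in MBD-TET1-CDwt, and all differences in those pairs move with it. Whether these clones differ in RNA content was not tested. MBD-TET1-CDwt #3 stood apart from the other 7 arrays, as the distances between arrays show. In RNA from a whole culture, fewer cells that express a gene and less RNA per cell cannot be told apart.

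The 4 pairs differed in how far apart the sisters were. MBD-TET1-CDmut #9 and #10 were the closest, with 226 genes past 2-fold, and MBD-TET1-CDwt #3 and #10 the farthest, with 1724. Empty vector lay between them with 584 and TET1-CDwt with 903. The SD of the difference over all genes measured was 0.33 in MBD-TET1-CDmut, 0.44 in empty vector, 0.55 in TET1-CDwt, and 0.71 in MBD-TET1-CDwt. The directions were uneven. In empty vector 366 genes were at least 2-fold higher in #2 (2.47% of those measured) and 218 in #1 (1.47%). In TET1-CDwt 302 were higher in #5 (2.04%) and 601 in #2 (4.06%). In MBD-TET1-CDwt 1186 were higher in #10 (8.15%) and 538 in #3 (3.7%), and in MBD-TET1-CDmut 83 were higher in #10 (0.579%) and 143 in #9 (0.997%). The split by direction rests on the scaling in 2 pairs. In empty vector it was 320 to 291 after quantile normalization, 286 to 292 after scaling on the median, and 1540 to 68 after scaling on spike-ins, and in MBD-TET1-CDwt it was 484 to 2922 after scaling on spike-ins. With normexp background correction, which pulls dim signals together, 99, 230, 655, and 35 genes were past 2-fold in the pairs in the order named at the start, with 76 of the 99 higher in empty vector #2. Genes on either side of the threshold did not separate, with differences of 1.00 in size both just inside and just outside it.

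**Figure D1:**
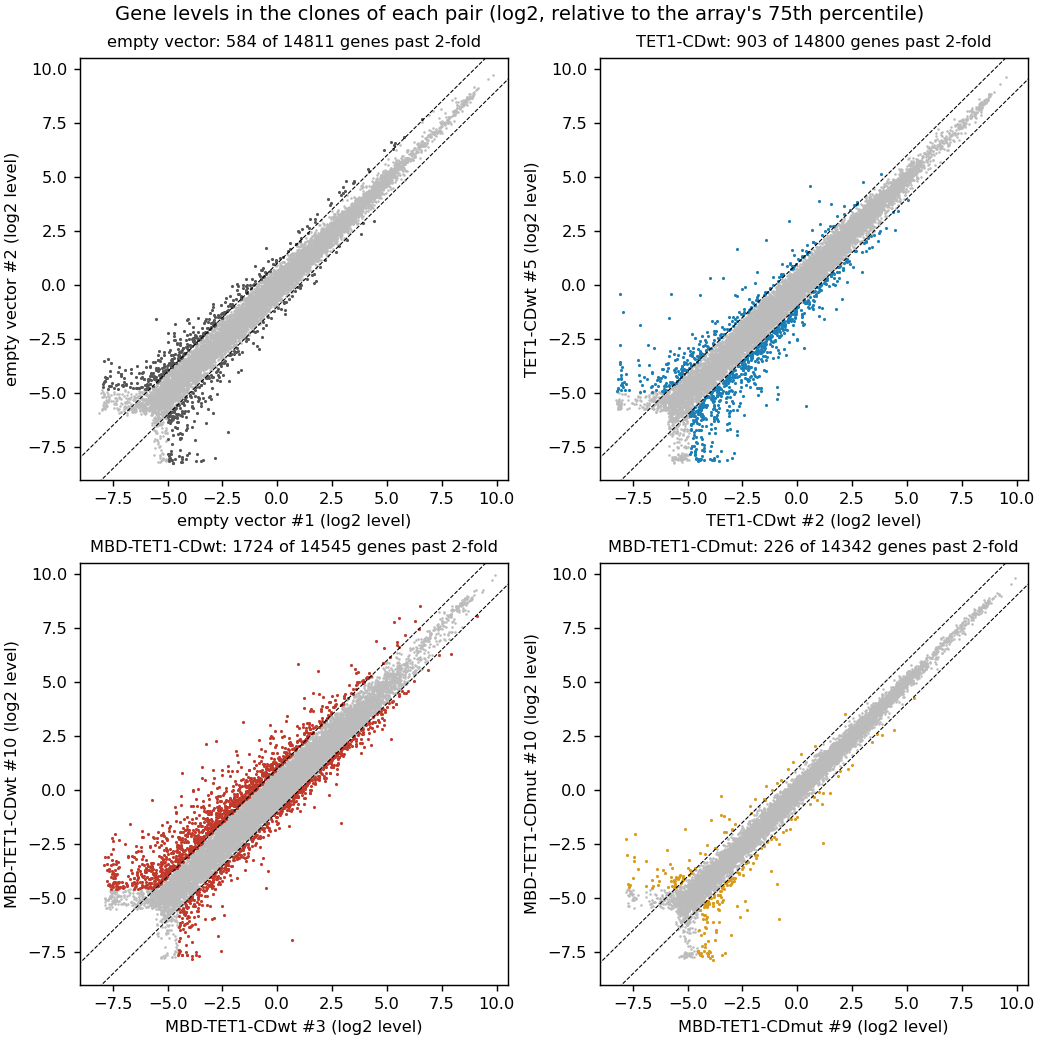
Levels of every gene measured in a pair, with the first clone on the horizontal axis and the second on the vertical axis, both as log2 relative to the array's 75th percentile. Dashed lines mark a 2-fold difference and colored points lie past it once dim signals are set to the floor, 584, 903, 1724, and 226 genes in the 4 pairs.

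At 5-fold, the threshold of the study, 18 genes in empty vector, 77 in the TET1-CDwt pair, 171 in the MBD-TET1-CDwt pair, and 18 in the MBD-TET1-CDmut pair differed between sisters. Of the 171, 155 were higher in #10. Among genes well above background on both arrays, 406, 694, 1407, and 129 genes were past 2-fold in the same order of pairs. The choice of a gene well above background on 1 array only favors a difference toward that array, and there were 685, 732, 851, and 571 such genes. Where a past-2-fold gene had another probe well above background on both arrays, that probe moved the same way for 47 of 55 genes in empty vector, 106 of 112 in TET1-CDwt, 230 of 245 in MBD-TET1-CDwt, and 6 of 6 in MBD-TET1-CDmut.

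Dim genes differed more often. In the dimmest 3491 of the 13964 genes measured in all pairs, 7.73% were past 2-fold in empty vector, 12.1% in the TET1-CDwt pair, 17.4% in the MBD-TET1-CDwt pair, and 2.95% in the MBD-TET1-CDmut pair. In the brightest 3491 the shares were 0.945%, 1.12%, 7.16%, and 0.172%. In MBD-TET1-CDwt, bright genes thus also differed.

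On average, sister clones lay about as far from each other as from clones of other vectors. The distance between 2 arrays was the median size of the difference over 24975 probes. It was 0.18 between the MBD-TET1-CDmut clones, 0.24 between the empty vector clones, 0.27 between the TET1-CDwt clones, and 0.38 between the MBD-TET1-CDwt clones. The mean of these 4 distances was 0.2689, against 0.2696 for the 24 distances between clones of different vectors, and their difference was -0.00074 (p = 0.448 by a one-sided exact permutation test over all ways to pair 8 arrays, whose smallest possible p is 0.00952). Empty vector and TET1-CDwt lay on 1 slide and both MBD fusions on the other. Within slides the difference was 0.0013 (one-sided exact permutation test over 9 pairings, p = 0.556, smallest possible p = 0.111). Without the MBD-TET1-CDwt clones it was -0.0019 (one-sided exact permutation test over 15 pairings, p = 0.533, smallest possible p = 0.0667).

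**Figure D2:**
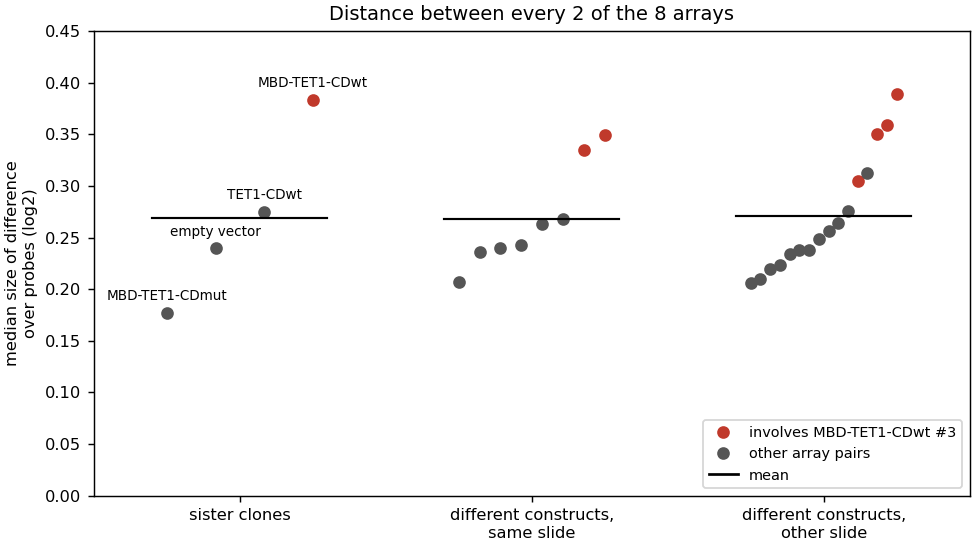
Distance between every 2 arrays as the median size of the log2 difference over 24975 probes, for sister clones and for clones of different vectors on the same or the other slide. Bars are means, which lie at 0.269, 0.268, and 0.271, and red points are the distances of MBD-TET1-CDwt #3.

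The MBD-TET1-CDmut clones were each other's nearest array. For the other 6 clones the sister ranked between the fourth and the last of 7 arrays. Empty vector #1 was nearest to MBD-TET1-CDmut #10 (0.21), as was empty vector #2 (0.22), TET1-CDwt #2 was nearest to empty vector #1 (0.21), and TET1-CDwt #5 to MBD-TET1-CDmut #9 (0.23). MBD-TET1-CDwt #10 was nearest to TET1-CDwt #2 (0.24), and its sister was the farthest of its 7 distances. MBD-TET1-CDwt #3 stood apart from the rest, with distances of 0.30 to 0.39 to the other 7 arrays. Results on its pair are therefore given beside the place of each clone among the other 6 arrays. Of the 538 genes higher in #3, 462 were above each of the other 6 arrays in #3 and 288 were below all of them in #10. Of the 1186 genes higher in #10, 728 were above each of the other 6 in #10 and 732 below each of the other 6 in #3. The choice of genes by a difference between sisters favors an extreme place, and other pairs had such genes too. In empty vector the high clone was above the other 6 arrays for 73.2% of genes toward #2 and 47.7% toward #1. The shares were 67.5% and 55.7% toward #5 and #2 of TET1-CDwt, and 54.2% and 55.9% toward #10 and #9 of MBD-TET1-CDmut. In MBD-TET1-CDwt they were 85.9% toward #3 and 61.4% toward #10.

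In empty vector, the largest differences were in dim genes. FBXL7, an F-box subunit of a ubiquitin ligase, was 15.7-fold higher in #2. Its levels were -5.52 and -1.55 in empty vector #1 and #2, -3.12 and -5.59 in TET1-CDwt #2 and #5, -4.93 and -3.84 in MBD-TET1-CDwt #3 and #10, and -5.90 (dim) and -5.97 (dim) in MBD-TET1-CDmut #9 and #10. Empty vector #2 was the highest of the 8 arrays for this gene, but its other probe differed by only -0.08. CCN3, a secreted matrix protein, was 6.65-fold higher in #2 (-4.97 and -2.23), and GJB7, a connexin, 7.26-fold (-4.67 and -1.81), with 2.63 as the log2 difference on its other probe. The noncoding RNAs LINC00685 and ASAP1-IT1 were 5.63-fold and 5.54-fold higher in #2. Toward #1, COL18A1-AS1 was at least 13.6-fold higher, LRRC19 at least 9.07-fold, PIK3IP1, an inhibitor of PI3-kinase, at least 7.80-fold, and DIPK1C at least 6.10-fold. COL18A1-AS1, LRRC19, and DIPK1C were well above background on the array of #1 and on no other. XCL1, a chemokine, showed the opposite arrangement. Its levels were -3.25 and -6.36 (dim) in empty vector #1 and #2, -3.59 and -3.60 in TET1-CDwt #2 and #5, -3.11 and -3.23 in MBD-TET1-CDwt #3 and #10, and -3.69 and -3.49 in MBD-TET1-CDmut #9 and #10, so that empty vector #2 alone was low and not well above background. The homeobox gene HOXC8 was 3.03-fold higher in #2 than in #1 (-0.94 against -2.54). KCNQ1OT1, the antisense RNA of an imprinted domain, was 4.10-fold higher in #2, where its spot was dimmer than its local background.

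In TET1-CDwt, ICAM2, an adhesion molecule of blood and endothelial cells, had the largest difference. Its levels were -4.35 and -6.04 (dim) in empty vector #1 and #2, 0.40 and -5.59 in TET1-CDwt #2 and #5, -1.94 and -1.27 in MBD-TET1-CDwt #3 and #10, and -3.62 and -4.84 in MBD-TET1-CDmut #9 and #10. TET1-CDwt #2 was the highest of the 8 arrays, 63.6-fold above its sister, and only empty vector #2 lay below the sister. TNFRSF10D, a decoy receptor for TRAIL, was 20.1-fold higher in #2, ITM2A, a membrane protein, 17.7-fold, PRKCB, protein kinase C beta, 17.3-fold (with -2.32 as the log2 difference on its other probe), and IRF7, a transcription factor of the interferon response, 14.1-fold. The levels of IRF7 were -4.28 and -3.63 in empty vector #1 and #2, -0.90 and -4.72 in TET1-CDwt #2 and #5, -0.75 and 1.89 in MBD-TET1-CDwt #3 and #10, and -1.19 and -1.54 in MBD-TET1-CDmut #9 and #10. Both clones of the MBD fusions were above TET1-CDwt #5 and both empty vector clones, and MBD-TET1-CDwt #10 was the highest. TET1-CDwt #5 was the higher clone for TRPM8, a cold-sensing ion channel, by at least 46.5-fold, with a level of -0.40 and no other array well above background. PCBP3, an RNA-binding protein, was at least 41.7-fold higher in #5, although its other probe, well above background in #2 alone, differed by -0.59, and BHLHE22, a neuronal transcription factor, at least 25.9-fold. KRTAP21-2, a hair keratin-associated protein, was 21.6-fold higher, and CNKSR2, a scaffold of Ras signaling, at least 19.7-fold, on 1 probe of 2, since the other was well above background on no array. KRTAP21-2 was at 0.66 and 0.20 in MBD-TET1-CDmut, so that TET1-CDwt #5 (1.68) resembled those clones more than its own sister (-2.75).

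In MBD-TET1-CDwt, differences reached bright genes. SAT1, which acetylates and so degrades polyamines, was 29.6-fold higher in #10. Its levels were 3.16 and 3.16 in empty vector #1 and #2, 2.96 and 2.51 in TET1-CDwt #2 and #5, 0.96 and 5.85 in MBD-TET1-CDwt #3 and #10, and 2.39 and 2.95 in MBD-TET1-CDmut #9 and #10, so that #3 was the lowest and #10 the highest of the 8 arrays, and the other SAT1 probe differed by 5.37. TMEM88, an inhibitor of Wnt signaling, was 41.9-fold higher in #10 (2.14 against -3.25), with the other 6 arrays between -4.10 and -2.85. NKX6-2, a homeobox factor of neural progenitors, was 33.0-fold higher in #10, with levels of -3.18 and -3.83 in empty vector #1 and #2, -1.76 and -4.22 in TET1-CDwt #2 and #5, -2.78 and 2.27 in MBD-TET1-CDwt #3 and #10, and 0.28 and -0.03 in MBD-TET1-CDmut #9 and #10. Both MBD-TET1-CDmut clones lay between the MBD-TET1-CDwt sisters, which were farther apart than any other clones of 1 vector. PKP3, a desmosome plaque protein, was at least 34.3-fold higher in #10 and CT45A5, a cancer-testis antigen, 35.1-fold. CT45A1, another member of that family, was at least 12.5-fold higher, and MAGEA2B 10.3-fold. Genes of these families are near-identical, and a probe may bind transcripts of several. Of 22 cancer-testis antigens measured in this pair, 13 were higher in #10 and 9 in #3. Their median was 0.19, and -0.33 with scaling on spike-ins. Past 2-fold were 5 toward #10 and 3 toward #3, against 8.15% and 3.7% of all genes. KRT19 was 6.96-fold higher in #10, at 2.53 against -0.27, with the other 6 arrays at -4.65 or below. Toward #3 were ITM2A, at least 73.3-fold (0.68 against -6.92), the small Cajal body RNAs SCARNA13, 21.6-fold, and SCARNA1, 16.2-fold, TNFRSF10D, 9.99-fold, and IDI2-AS1, at least 8.54-fold. The levels of SCARNA13 were -1.48 and -1.10 in empty vector #1 and #2, -0.56 and 0.26 in TET1-CDwt #2 and #5, 2.89 and -1.54 in MBD-TET1-CDwt #3 and #10, and -1.32 and -1.73 in MBD-TET1-CDmut #9 and #10, with #3 above each of the other 7 arrays. ITM2A was well above background in TET1-CDwt #2 and #5 and in MBD-TET1-CDwt #3, and in no other clone.

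MBD-TET1-CDmut had few large differences. TLX2, a homeobox factor of the enteric nervous system, was at least 25.8-fold higher in #9, at -0.84 against -5.96 in #10 where it was not well above background. FGF13, an intracellular fibroblast growth factor homolog, was 12.3-fold higher in #9, with levels of -2.63 and -1.86 in empty vector #1 and #2, -0.38 and -0.14 in TET1-CDwt #2 and #5, -4.12 and -3.11 in MBD-TET1-CDwt #3 and #10, and 1.17 and -2.45 in MBD-TET1-CDmut #9 and #10. MAL2, a protein of membrane transport in polarized cells, was 10.6-fold higher in #9, HLA-DQA2 at least 9.46-fold, and TOX3 at least 7.59-fold. HLA-DQA2 closely resembles other class II genes, and its probe may bind their transcripts. Toward #10 were MAML2, a Notch coactivator, at least 11.4-fold, LGI4, a glial secreted protein, 9.92-fold, SSX1, at least 9.78-fold, MAGEB2, 9.21-fold, and MPZL2, an adhesion protein, at least 6.90-fold. SSX1 and MAML2 were well above background in #10 and in no other clone. For LGI4, the low clone was the exception, with #9 at -5.10 and the other 7 arrays between -4.10 and -1.79.

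Genes that differed in 1 pair often differed in another. Of the 13964 genes measured in all 4 pairs, 11701 were past 2-fold in no pair, 1787 in 1, 389 in 2, 76 in 3, and 11 in all 4. In this set 3.03% of genes were past 2-fold in empty vector, 5.26% in the TET1-CDwt pair, 11% in the MBD-TET1-CDwt pair, and 1.07% in the MBD-TET1-CDmut pair. Of the 423 such genes in empty vector, 25.1% were also past 2-fold in TET1-CDwt and 31.9% in MBD-TET1-CDwt. Of the 734 in TET1-CDwt, 39.9% were also past it in MBD-TET1-CDwt, and these were 19.2% of the 1530 in that pair. Of the 150 in MBD-TET1-CDmut, 22% were also past 2-fold in empty vector, 40.0% in TET1-CDwt, and 37.3% in MBD-TET1-CDwt. Each share was above that of all genes. Genes past 2-fold in several pairs were dim, with a median level of -2.82 for 2 pairs and -3.59 for 3 pairs, against 0.14 for no pair. Within the dimmest 3491 genes, where 12.1% of genes were past 2-fold in TET1-CDwt, 28.9% of those past it in empty vector were. Within the brightest 3491, 33 genes were past 2-fold in empty vector. Of these 3.03% were past it in TET1-CDwt, against 1.12% of the brightest genes, and 6.06% in MBD-TET1-CDwt, against 7.16%. Of the 39 bright genes past 2-fold in TET1-CDwt, 51.3% were past it in MBD-TET1-CDwt.

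The genes that differed in the most pairs came from many families. GALNT14, which starts mucin-type glycosylation, was past 2-fold in all 4 pairs and well above background on all 8 arrays. Its levels were -1.40 and 0.29 in empty vector #1 and #2, 2.04 and -0.64 in TET1-CDwt #2 and #5, -3.44 and 1.08 in MBD-TET1-CDwt #3 and #10, and 0.60 and -0.65 in MBD-TET1-CDmut #9 and #10. MBD-TET1-CDwt #3 was the lowest and TET1-CDwt #2 the highest, and the high clone was the second in empty vector and MBD-TET1-CDwt and the first in the others. ASCL2, a target of Wnt signaling in stem cells, had the same arrangement of high and low clones, at -5.76 (dim) and -4.13 in empty vector #1 and #2, -3.72 and -6.12 (dim) in TET1-CDwt #2 and #5, -6.30 (dim) and -3.50 in MBD-TET1-CDwt #3 and #10, and -3.43 and -5.18 in MBD-TET1-CDmut #9 and #10. ESX1, a placental homeobox gene, had it too, with 2.77-fold, 8.64-fold, 2.12-fold, and 2.13-fold between sisters. MMP23B, a metalloproteinase, had levels of -1.12 and -2.69 in empty vector #1 and #2, -0.01 and -2.56 in TET1-CDwt #2 and #5, -1.86 and 1.81 in MBD-TET1-CDwt #3 and #10, and -0.17 and 1.30 in MBD-TET1-CDmut #9 and #10. P2RX1, a receptor channel for ATP, differed by 3.28-fold, 7.98-fold, at least 3.37-fold, and 3.22-fold. GARIN5A was the brightest of these genes, with levels of 3.80 and 2.35 in empty vector #1 and #2, 4.44 and 2.57 in TET1-CDwt #2 and #5, 2.49 and 4.35 in MBD-TET1-CDwt #3 and #10, and 3.42 and 2.24 in MBD-TET1-CDmut #9 and #10, so that in each pair 1 clone was at 3.42 or above and its sister at 2.57 or below. LMOD2, a muscle actin nucleator, and ITGB1BP2, a muscle integrin partner, were higher in the second clone in 3 pairs and in the first in MBD-TET1-CDwt, although with normexp the LMOD2 difference in empty vector turned to -0.054. PRKCB and TNFRSF10D were past 2-fold in all 4 pairs as well. The levels of TNFRSF10D were -3.12 and -4.32 in empty vector #1 and #2, -0.92 and -5.25 in TET1-CDwt #2 and #5, -0.43 and -3.75 in MBD-TET1-CDwt #3 and #10, and -3.48 and -1.15 in MBD-TET1-CDmut #9 and #10, with 3 clones of 3 different vectors at -1.15 or above and the other 5 at -3.12 or lower.

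TET1-CDwt and MBD-TET1-CDwt had the most genes past 2-fold and shared the most by count, in a particular arrangement of clones. The shared genes were 39.9% of the 734 in TET1-CDwt, whereas 11% of all genes were past 2-fold in MBD-TET1-CDwt. By share this overlap was not the largest. Of the 150 genes in MBD-TET1-CDmut, 40% were past 2-fold in TET1-CDwt, against 5.26% of all genes. Of the 293 genes past 2-fold in both pairs, 208 were higher in TET1-CDwt #2 and in MBD-TET1-CDwt #10, 40 were higher in TET1-CDwt #5 and MBD-TET1-CDwt #3, 31 in #5 and #10, and 14 in #2 and #3. Over all 13964 genes the differences of these pairs were inversely related (Pearson r = -0.39 and Spearman rho = -0.41 across genes, which are not independent replicates and share the scaling of each array). The pairs share no array. The same description gave r = 0.25 for empty vector with TET1-CDwt and between -0.22 and 0.08 for the other 4 combinations. Among the 13365 genes well above background on all 8 arrays, r was -0.40 and 28 of 228 shared genes had the same sign. Clone numbers do not order clones across vectors, so the sign of r says only which clones resembled each other.

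**Figure D3:**
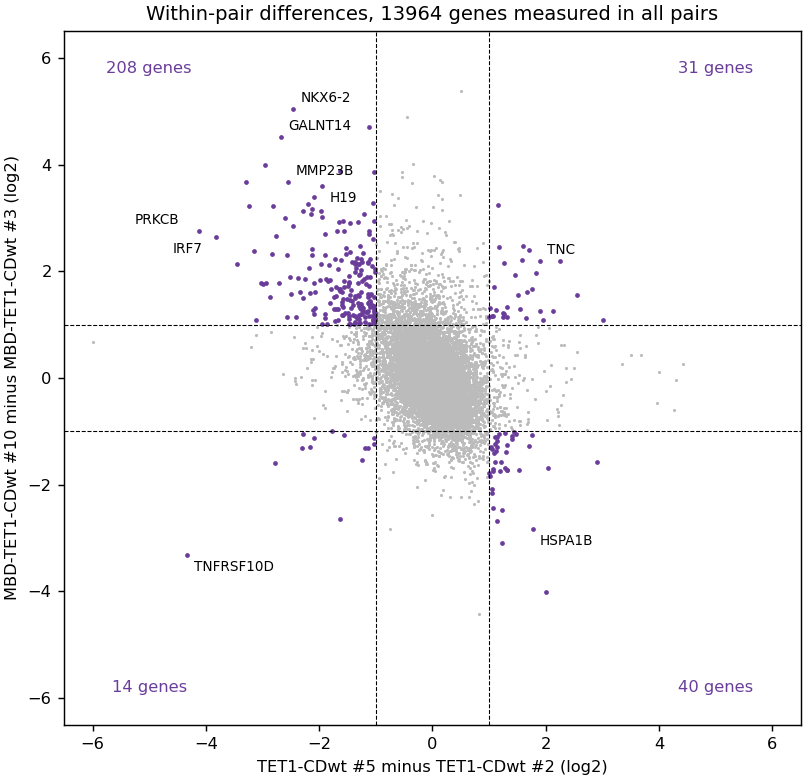
Difference between the TET1-CDwt clones (horizontal axis) and between the MBD-TET1-CDwt clones (vertical axis), both log2, for the 13964 genes measured in all pairs. Purple points are the 293 genes past 2-fold in both, of which 208 lie in the upper left, higher in TET1-CDwt #2 and in MBD-TET1-CDwt #10.

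Genes named above in this upper left set were GALNT14, GARIN5A, PRKCB, ASCL2, ESX1, MMP23B, P2RX1, IRF7, and NKX6-2. Among genes named for their lists, H19, an imprinted RNA of fetal tissues, was there as well, at -4.21 and -5.83 (dim) in empty vector #1 and #2, -3.26 and -5.21 in TET1-CDwt #2 and #5, -4.61 and -1.01 in MBD-TET1-CDwt #3 and #10, and -4.14 and -4.15 in MBD-TET1-CDmut #9 and #10. BST2, an antiviral membrane protein, was higher in the same clones, by 4.43-fold and by at least 8.43-fold. The epithelial adhesion molecules EPCAM (2.73-fold and 7.48-fold) and CDH1 (2.96-fold and at least 3.25-fold) followed the same clones, with CDH1 not well above background in MBD-TET1-CDwt #3. Of the 4 epithelial markers measured, the other 2 were slightly higher in TET1-CDwt #5 (CLDN4 by 0.17), and all 4 were higher in MBD-TET1-CDwt #10. CDKN1C, an imprinted inhibitor of the cell cycle, was 2.49-fold higher in TET1-CDwt #2 and 3.44-fold higher in MBD-TET1-CDwt #10. TNC, tenascin C of the matrix, differed otherwise. It was higher in #2 of empty vector (4.25-fold), in #5 of TET1-CDwt (3.72-fold), and in #10 of MBD-TET1-CDwt (at least 4.55-fold), with levels of -5.18 and -3.09 in empty vector #1 and #2, -5.20 and -3.30 in TET1-CDwt #2 and #5, -5.67 (dim) and -3.38 in MBD-TET1-CDwt #3 and #10, and -5.0 and -4.24 in MBD-TET1-CDmut #9 and #10.

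The heat shock chaperones, which refold proteins, differed within both wild-type TET1-CD pairs. In TET1-CDwt 6 of 20 were at least 2-fold higher in #5 and 0 in #2, against 2.04% and 4.06% of all genes, with a median difference of 0.83. In MBD-TET1-CDwt 11 of 20 were at least 2-fold higher in #3 and 1 in #10, against 3.7% and 8.15% of all genes, with a median of -1.07. The medians over all genes were 0.01 and -0.02. HSPA1B had levels of 3.19 and 3.20 in empty vector #1 and #2, 3.02 and 4.79 in TET1-CDwt #2 and #5, 5.20 and 2.37 in MBD-TET1-CDwt #3 and #10, and 3.71 and 3.04 in MBD-TET1-CDmut #9 and #10. TET1-CDwt #5 and MBD-TET1-CDwt #3 were thus above the other 6 clones, 3.40-fold and 7.11-fold above their sisters. HSPA1A is near-identical to HSPA1B, and its probe gave at least 8.93-fold and 3.93-fold. The strictly inducible HSPA6 was 19.3-fold higher in TET1-CDwt #5 (0.31 against -3.96), with 2.58 as the log2 difference on its other probe, but was at -4.66 in MBD-TET1-CDwt #3. In empty vector 1 of 19 chaperones was past 2-fold (HSPA6, at least 2.63-fold higher in #2, with only 0.11 as the log2 difference on its other probe), and in MBD-TET1-CDmut 0 of 20. Over all genes 584 of 14811 and 226 of 14342 were past 2-fold in these pairs.

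Genes of the unfolded protein and amino acid response were mostly lower in MBD-TET1-CDwt #3 than in its sister. In that pair 14 of 27 were at least 2-fold higher in #10 and 1 in #3, against 8.15% and 3.7% of all genes, with a median difference of 1.02 (0.50 with scaling on spike-ins). HSPA5, the main chaperone of the endoplasmic reticulum, had levels of 1.93 and 2.43 in empty vector #1 and #2, 2.57 and 2.74 in TET1-CDwt #2 and #5, -0.34 and 3.01 in MBD-TET1-CDwt #3 and #10, and 2.38 and 2.27 in MBD-TET1-CDmut #9 and #10. DDIT3, a stress transcription factor, was 7.04-fold higher in #10 than in #3 (0.64 against -2.18), with 0.78 to 1.73 on the other 6 arrays, and NUPR1 8.21-fold (4.28 against 1.24), with 2.95 to 4.74 on the others. For all 3 genes MBD-TET1-CDwt #3 was the lowest of the 8 arrays. These 3 were named for the size of their difference, so they do not place the rest of the list. The other pairs had medians of -0.27 in empty vector (0.27 with scaling on spike-ins), 0.07 in the TET1-CDwt pair, and 0.14 in the MBD-TET1-CDmut pair, and 1, 3, and 0 genes past 2-fold. Over all genes 584 of 14811, 903 of 14800, and 226 of 14342 were past 2-fold in those pairs.

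**Figure D4:**
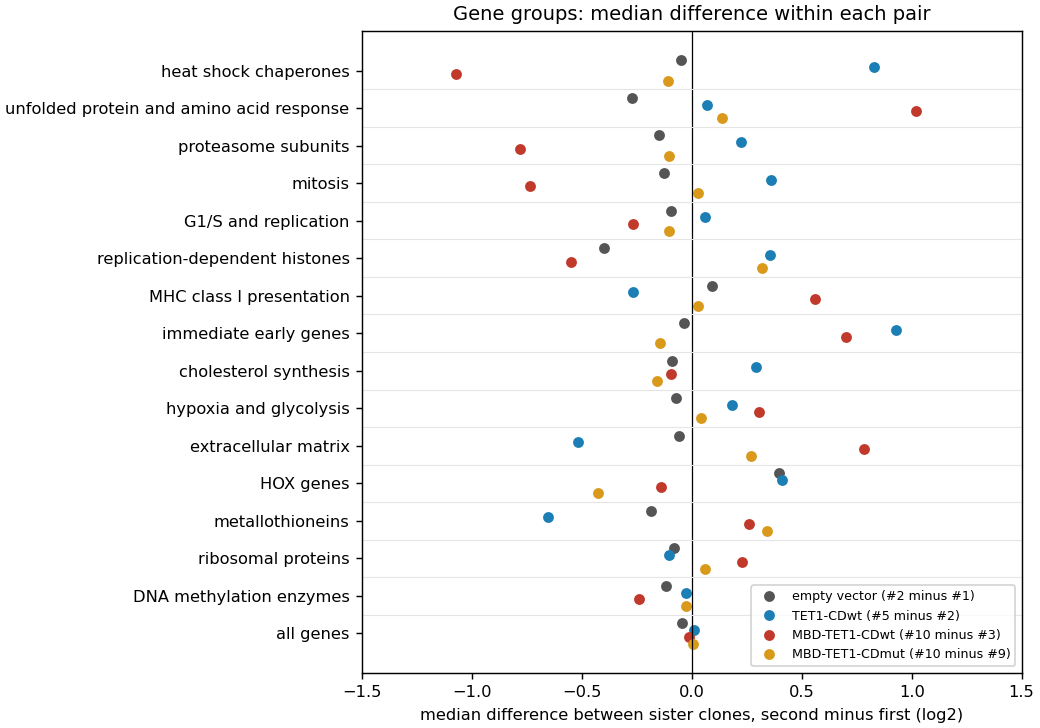
Median log2 difference between sister clones (second minus first) over the measured members of 15 gene groups and over all genes, with 1 point for each pair. Values of the empty vector and MBD-TET1-CDwt pairs would move by 0.54 and -0.52 if arrays were scaled on spike-ins.

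Proteasome subunits, which degrade tagged proteins, were higher in MBD-TET1-CDwt #3 for 25 of 27 genes, with 6 past 2-fold, against 3.7% of all genes, and a median of -0.78. PSMD12 and PSMD1 were 2.77-fold and 2.73-fold higher in #3, and PSMA4 2.71-fold. In the other 3 pairs no subunit was past 2-fold, against 584 of 14811, 903 of 14800, and 226 of 14342 of all genes. Mitotic genes moved with them. All 23 were higher in MBD-TET1-CDwt #3, 3 of them past 2-fold, against 3.7% of all genes, with a median of -0.74. In TET1-CDwt 22 of 23 were higher in #5, none past 2-fold, against 2.04% of all genes, with a median of 0.36. CDC20, which activates the anaphase-promoting complex, was at 1.23 and 1.25 in empty vector #1 and #2, 1.03 and 1.74 in TET1-CDwt #2 and #5, 2.54 and 1.07 in MBD-TET1-CDwt #3 and #10, and 1.75 and 1.55 in MBD-TET1-CDmut #9 and #10, highest in MBD-TET1-CDwt #3. The G1/S and replication genes differed less, with a median of -0.27 in MBD-TET1-CDwt. There 1 of 22 was past 2-fold (CCNE2, 2.16-fold higher in #3), against 3.7% of all genes toward #3.

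Immediate early genes, which respond to growth signals and stress, were higher in TET1-CDwt #5 for 19 of 20 genes, 7 of them past 2-fold (median 0.93), against 2.04% of all genes, and in MBD-TET1-CDwt #10 for 20 of 21, 6 past 2-fold toward #10 and 1 toward #3 (median 0.70, and 0.18 with scaling on spike-ins), against 8.15% and 3.7% of all genes. EGR1 was 5.10-fold higher in TET1-CDwt #5 and differed by 1.13-fold in MBD-TET1-CDwt, where EGR2 was 9.44-fold and FOS 3.54-fold higher in #10. Of YAP and SRF targets, 2 of 14 were past 2-fold toward TET1-CDwt #5 and 0 toward #2, against 2.04% and 4.06% of all genes. In MBD-TET1-CDwt 8 of 15 were higher in #10 and 7 in #3 (median 0.061, and -0.46 with scaling on spike-ins). Past 2-fold were 4 toward #10 and 1 toward #3, against 8.15% and 3.7% of all genes. ANKRD1 was 15.6-fold higher in TET1-CDwt #5, 2.18-fold in empty vector #1, and 2.04-fold in MBD-TET1-CDmut #9. CCN1 was 5.76-fold higher in MBD-TET1-CDwt #10. Matrix genes were higher in MBD-TET1-CDwt #10 for 21 of 26, against 7116 of all 14545 genes, with a median of 0.78 (0.26 with scaling on spike-ins). Of these 7 were past 2-fold, against 8.15% of all genes, among them COL9A3 (5.76-fold) and COL6A2 (3.72-fold). In TET1-CDwt 21 of 26 matrix genes were higher in #2, against 7226 of all 14800 genes. The median there was -0.52 (-0.55 with scaling on spike-ins), with 3 past 2-fold toward #2 and 2 toward #5, against 4.06% and 2.04%. Medians were -0.057 in empty vector and 0.27 in MBD-TET1-CDmut. Of 12 genes of antigen presentation by MHC class I, 0 were past 2-fold in any pair. Over all genes 584 of 14811, 903 of 14800, 1724 of 14545, and 226 of 14342 were, so this short list would hold few. Its median in MBD-TET1-CDwt was 0.56 (0.037 with scaling on spike-ins). Of 18 interferon-stimulated genes measured there, 12 were higher in #10 and 6 in #3, and the median of 0.22 turned to -0.31 with scaling on spike-ins. Past 2-fold were 5 toward #10, among them IFITM3 (6.87-fold), and 1 toward #3, against 8.15% and 3.7% of all genes.

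HOX genes, the positional regulators of the embryo, shifted a little within 3 pairs. In empty vector 26 of 34 were higher in #2 (median 0.40), in TET1-CDwt 27 of 34 in #5 (median 0.41), and in MBD-TET1-CDmut 29 of 34 in #9 (median -0.43), with 3, 5, and 1 past 2-fold. In MBD-TET1-CDwt 15 of 34 were higher in #10 and 19 in #3 (median -0.14), with 2 past 2-fold toward #10, among them HOXC12 (14.6-fold), and 3 toward #3. Over all genes 584 of 14811, 903 of 14800, 1724 of 14545, and 226 of 14342 were past 2-fold in the 4 pairs. Of the neurofilament and other neuronal genes, 18 of 19 were higher in TET1-CDwt #2 (median -0.31), 4 of them past 2-fold, among them CHGA (2.73-fold) and the intermediate filament gene INA (2.38-fold), against 4.06% of all genes. In MBD-TET1-CDwt 4 of 17 were past 2-fold toward #10 and 2 toward #3, against 8.15% and 3.7% of all genes. The median there was 0.15, and -0.37 with scaling on spike-ins. The neurofilament gene NEFM was 4.58-fold higher in #10 and INA 2.91-fold higher in #3. In empty vector 1 of 17 was past 2-fold, ELAVL4 by 1.16 toward #2, against 2.47% of all genes. In MBD-TET1-CDmut 1 of 17 was, NEFH by 1.13 toward #10, against 0.579%. PAX2, a kidney regulator, was 2.47-fold higher in empty vector #2 and 2.39-fold higher in MBD-TET1-CDwt #10, on 1 probe of 2, since the other was well above background on no array. In 3 further lists few genes were past 2-fold, and lists as short as those of the methylation enzymes and keratins would hold few at the shares over all genes. Of 15 genes listed as DNA methylation enzymes, a list that also holds the isocitrate dehydrogenase genes IDH1 and IDH2, 0 were past 2-fold in any pair. Their medians were between -0.24 and -0.03. With scaling on spike-ins the median was 0.42 in empty vector and -0.77 in MBD-TET1-CDwt. Of 85 ribosomal protein genes, 0, 0, 2, and 1 were past 2-fold, and of 7 to 10 keratin genes measured only KRT19.

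Differences were not scattered evenly along the genome. The median difference of 51 neighboring genes lay at least 0.3 from the median of all genes in 9.0% of windows in empty vector, 6.53% in the TET1-CDwt pair, 6.91% in the MBD-TET1-CDwt pair, and 1.80% in the MBD-TET1-CDmut pair. These shifts are read against the median of all genes, which spike-in scaling moves by the amounts given above, and such scaling moves each shift equally. Genes were ordered by a later genome assembly than that of the array design, and no coordinates are given. In empty vector the largest shift was at one end of chromosome 13, from IPO5 to RASA3, where 46 of 51 genes were higher in #1 with a median of -0.66. With the place chosen from every other gene, the genes not used to choose it had a median of -0.61. The same segment had a median of -0.41 in TET1-CDwt, where 44 of 52 genes were higher in #2, and of 0.05 and 0.13 in the MBD fusions. Relative to the median of all arrays, its genes were at -0.63 in empty vector #2 and -0.32 in TET1-CDwt #5, and between -0.05 and 0.10 in the other 6 clones.

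Chromosome 7 shifted in several pairs. From MPLKIP to MRPS17 the median was -0.65 in empty vector, -0.59 in the TET1-CDwt pair, -0.37 in the MBD-TET1-CDwt pair, and -0.17 in the MBD-TET1-CDmut pair. Relative to the median of all arrays, its genes were at 0.36, 0.31, and 0.33 in empty vector #1, TET1-CDwt #2, and MBD-TET1-CDwt #3. They were at -0.21 and -0.27 in empty vector #2 and TET1-CDwt #5 and between -0.08 and 0.04 in the other 3 clones. Clones of 3 vectors thus shared the high level. Farther along, from LINC03009 to GNGT1, the median was 0.51 in empty vector and 0.36 in MBD-TET1-CDwt, and -0.13 and 0.06 in the other pairs. From STMP1 to CUL1 the median was 0.37 in MBD-TET1-CDmut, where 47 of 51 genes were higher in #10, and 0.21, 0.09, and 0.32 in the empty vector, TET1-CDwt, and MBD-TET1-CDwt pairs.

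**Figure D5:**
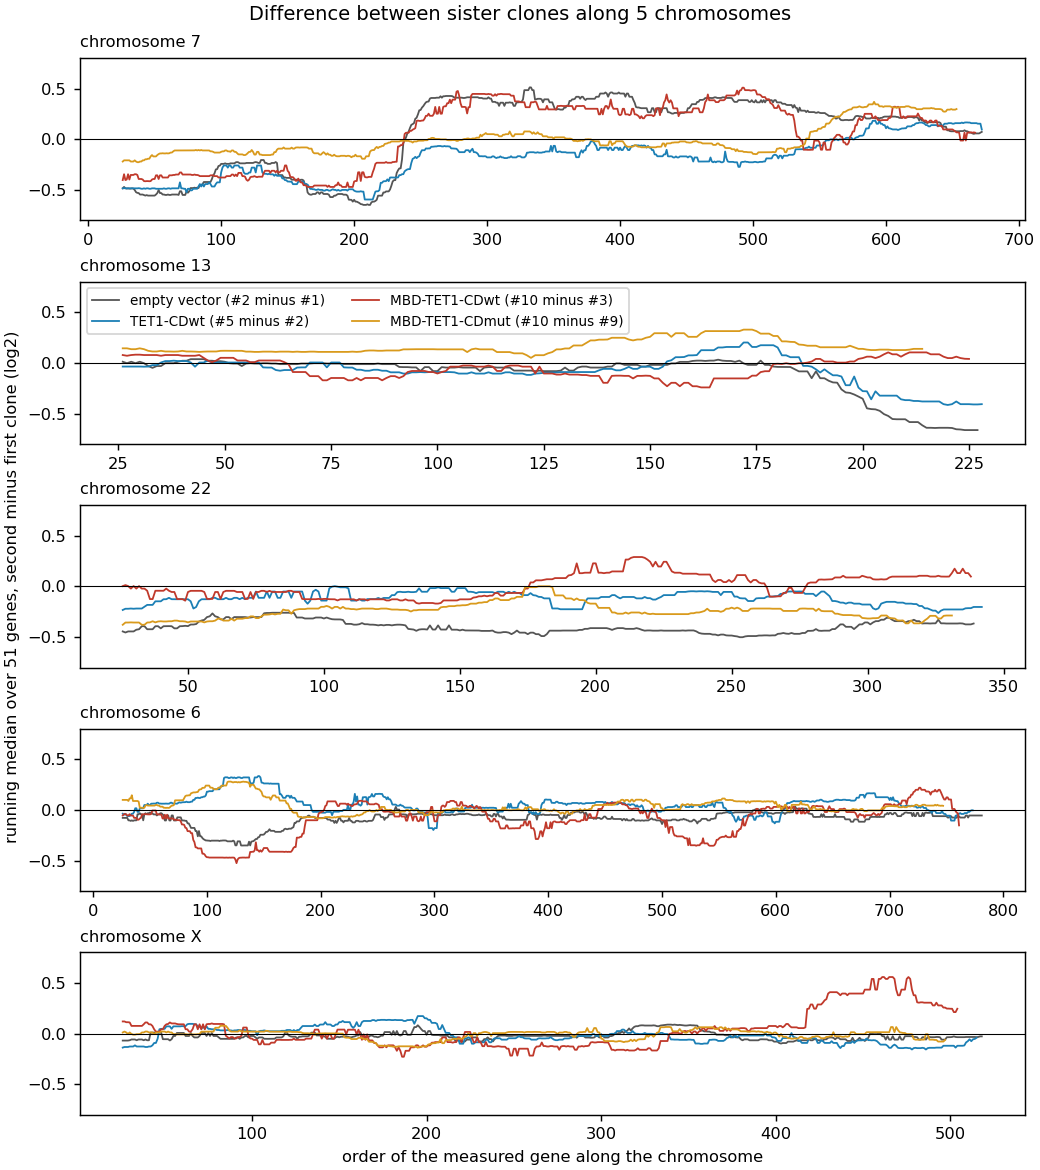
Running median of the log2 difference between sister clones over 51 neighboring genes, along 5 chromosomes, against the order of the measured genes. The lines leave 0 over stretches of chromosome 7 in all 4 pairs, at the end of chromosome 13 in empty vector (-0.66) and TET1-CDwt (-0.41), over all of chromosome 22 in empty vector (-0.40), and near the end of chromosome X in MBD-TET1-CDwt (0.56).

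Whole chromosomes were shifted as well. In empty vector the median over 364 genes of chromosome 22 was -0.40 and over 619 genes of chromosome 9 it was 0.29. In MBD-TET1-CDmut the 159 genes of chromosome 21 had a median of -0.29 and the 356 genes of chromosome 22 one of -0.26, and in TET1-CDwt the 788 genes of chromosome 3 one of -0.25. In TET1-CDwt, 45 of 51 genes from DNAJC8 to RBBP4 on chromosome 1 were higher in #5 (median 0.54) and 44 of 51 from RNMT to ELP2 on chromosome 18 (median 0.49). TET1-CDwt #2 was the low clone of both segments, at -0.45 and -0.43 relative to the median of all arrays. In MBD-TET1-CDwt the end of chromosome X, from MAP7D3 to SSR4, had a median of 0.56 with 37 of 51 genes higher in #10, and only 0.25 when read on genes not used to place it. The chromosomes of these clones were not measured, and the part of chromosome copies in these shifts was not tested.

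A cluster of histone genes on chromosome 6, from H4C2 to H2AC14, had a median of -0.52 in MBD-TET1-CDwt, -0.35 in empty vector, 0.32 in the TET1-CDwt pair, and 0.28 in the MBD-TET1-CDmut pair. Histone genes that are expressed during DNA replication moved as 1 group in every pair. Of 58 measured in empty vector 57 were higher in #1 (median -0.40, and 0.14 with scaling on spike-ins), of 58 in TET1-CDwt 49 were higher in #5 (median 0.36), of 59 in MBD-TET1-CDwt 56 were higher in #3 (median -0.55), and of 57 in MBD-TET1-CDmut 54 were higher in #10 (median 0.32). Past 2-fold were 0, 1, 8, and 1 in these pairs, against 584 of 14811, 903 of 14800, 1724 of 14545, and 226 of 14342 of all genes. Of the 8 in MBD-TET1-CDwt, 7 were toward #3 and 1 toward #10, against 3.7% and 8.15% of all genes. H1-3, a linker histone, was 4.28-fold and H1-4 3.02-fold higher in MBD-TET1-CDwt #3, whereas H2AC25 was 4.14-fold higher in #10.

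The genes of the constructs did not separate the clones. TET1 had levels of 2.62 and 2.94 in empty vector #1 and #2, 2.74 and 2.71 in TET1-CDwt #2 and #5, 2.78 and 2.81 in MBD-TET1-CDwt #3 and #10, and 2.85 and 2.61 in MBD-TET1-CDmut #9 and #10, so that the empty vector clones were within the range of the clones that carry TET1-CD, and its other probe lay between -1.55 and -0.70. The brighter MBD2 probe lay between 1.25 and 1.65, and the dimmer one was at -2.57 in TET1-CDwt #5 and at -3.94 or lower elsewhere. Whether these probes bind the part of each gene carried by the plasmids is not known here, so they check neither the labels nor the level of the transgene. ACTB, an endogenous control in the study, differed by 1.58-fold in MBD-TET1-CDwt on its brighter probe (7.97 in #3 and 7.31 in #10) and by 1.07-fold to 1.11-fold in the other pairs. B2M differed by 1.01-fold to 1.07-fold in the 4 pairs.

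Markers of HEK293T cells were well above background on all arrays for 10 of 10 genes. Their summed level was between 7.15 and 7.88. Of 7 prostate markers, 4 to 6 were well above background and KLK3 on no array. Of 7 fibroblast markers 2 or 3 were, with COL1A2, COL3A1, DCN, and THY1 on no array. Of 5 endothelial markers 1 or 2 were, with PECAM1, KDR, and CLDN5 on none, and of 6 lymphoid markers 3 or 4, with CD3E and MS4A1 on none. Of 8 epithelial markers 3 or 4 were, and KRT5, KRT13, KRT14, and ESRP1 on no array. Within the MBD-TET1-CDwt pair 3 of the 4 epithelial markers measured were past 2-fold toward #10, against 8.15% of all genes. Among them CDH1 was dim in #3. The median of the 4 was 1.48, and 0.43 with normexp. The summed level of the list was 2.75 in #3 and 3.22 in #10. The part of other cells in these differences was not tested.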

How the data were processed

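RNA of 8 stable HEK293T clones was labeled with Cy3 and hybridized to 1 single-color Agilent human 4x44K v2 array each, on 2 slides. The deposited intensities are the processed signals that the authors' scanner software wrote, background-subtracted but not scaled between arrays. The submitters' processing notes name Agilent Feature Extraction 9.5.1, whereas the file headers name version 10.7.3.1 and build hg19. Clones were paired by the vector in their titles.

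Control spots and 213 to 269 outlier spots per array were left out, and spots of 1 probe were averaged, which gave 34127 probes, of which 999 had 10 spots. A probe counted as well above background if over 50% of its spots carried that mark. Levels are log2 of the processed signal minus the log2 of the array's 75th percentile over probes (328 to 527 intensity units). No spot was saturated. Symbols from RefSeq and its gene order (GRCh38.p14) named 25422 probes (74.5%), and the brightest of a gene's probes over the 8 arrays stood for it (19483 genes). A difference was taken where the probe was well above background on at least 1 array of the pair, with dim signals set to the lowest signal well above background on the array, or to their own value if higher. A call is a difference past 2-fold, since 1 array per clone allows no test across genes, and the number of arrays limits the precision. Distances between arrays were compared by a one-sided exact permutation test. Named genes are the 5 largest differences in each direction of each pair, the 10 genes with the most pairs past 2-fold, up to 3 genes past 2-fold of each list, and the constructs' genes and controls. A gene that this rule names is not reported here. The gene lists, members, and alternatives were chosen with earlier results of these data known.

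Alternatives were quantile, median, spike-in, and loess scaling, normexp background correction (limma 3.58.1 in R 4.3.3, with an offset of 50, on the median signal), other filters, no floor, a 5-fold threshold, other probes of a gene, and leaving out a pair. Computations were run with matplotlib 3.10.9, scipy 1.17.1, pandas 2.3.3, and numpy 2.4.6 under Python 3.11.15 and were tested on simulated data.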

Additional observations from a re-analysis of the deposited data

How the results depend on the processing

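Clones were isolated independently and their numbers do not match clones of different vectors, so no paired analysis across vectors was possible. Leaving out 1 clone of a pair leaves no difference, so no value without a clone can be given. Each within-pair count stayed within 1.5 times its value of 584, 903, 1724, or 226 under quantile, median, and loess scaling, with outlier spots kept, and with other probes of a gene. It moved further with normexp (99 in empty vector, 230 in TET1-CDwt, 655 in MBD-TET1-CDwt, 35 in MBD-TET1-CDmut), with spike-in scaling (1608 in empty vector, 3406 in MBD-TET1-CDwt), and at 5-fold (18, 77, 171, and 18). Requiring all 8 arrays well above background tested fewer genes and gave 329 in empty vector, 594 in the TET1-CDwt pair, and 103 in the MBD-TET1-CDmut pair. In MBD-TET1-CDmut the count was 129 with both arrays well above background and 381 without a floor. The 476 genes past 2-fold in at least 2 pairs became 106 with normexp, 771 with spike-in scaling, 17 at 5-fold, 188 without the TET1-CDwt pair, and 161 without the MBD-TET1-CDwt pair.

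The difference of sister and non-sister distances turned positive with quantile normalization (0.0069, one-sided exact permutation p = 0.638), median scaling (0.0060, p = 0.638), loess over all 8 arrays (0.0042, p = 0.543), spike-in scaling (0.0046, p = 0.352), pairings within a slide (0.0013, p = 0.556), and probes well above background on all 8 arrays (0.0063, p = 0.657). It was -0.115 (exact permutation p = 0.00952, the smallest possible) after loess within a pair, which by construction brings only sister arrays together, and -0.029 (p = 0.124) with normexp. Of single values, the LMOD2 difference in empty vector was -0.054 with normexp. The median of the hypoxia and glycolysis list in MBD-TET1-CDwt was -0.22 and that of histones in empty vector 0.14 with spike-in scaling, and that of prostate markers in TET1-CDwt was 0.0081 with normexp. The causes of the changes with normexp and spike-in scaling were not tested. Normexp on the median signal, spike-in scaling, the percentile over spots, loess over all 8 arrays, and the distance without MBD-TET1-CDwt were chosen after seeing the data. Signal near background limits what can be read of dim genes, for which a difference is only a bound.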
